A study of Drosophila melanogaster with 12 samples.

Results

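The mRNAs that co-purified with Pumilio (PUM) from early Drosophila embryos were compared with those recovered in control immunoprecipitations, by RNA co-immunoprecipitation followed by microarray (RIP-Chip). Members were chosen by a completeness rule that used no ratio: all array features with a value in each of the 12 deposited columns, which were 7186 of the 17130 rows of the table. Each feature stands for a transcript and carries a FlyBase transcript ID. The 2 groups were 3 PUM RIPs and 3 control RIPs, all from w1118 embryos collected 0 to 3 h after egg-laying, and labelled as biological replicates. The PUM RIPs used a bacterially expressed synthetic antigen-binding fragment against PUM. The control RIPs used a synthetic control antibody in its place. The same 3 control RNAs also served a set of 3 BRAT RIPs, with which they were normalized a second time. w1118 is a white-eyed laboratory strain that stands as the wild type here. Both groups came from extracts of whole embryos. A ratio therefore reports RNA recovered with the PUM antibody over RNA recovered with the control antibody, averaged over whole embryos of the collection. No input RNA was analysed here, so recovery relative to the amount of each mRNA in the extract was not measured.

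PUM is the founding member, with nematode FBF, of the PUF family of RNA-binding proteins, which grip short sequence motifs in the 3′ untranslated regions of mRNAs and lower their translation and stability. In the early embryo PUM is best known for repressing maternal hunchback mRNA at the posterior of the egg, together with Nanos and Brain tumor (BRAT), and so for patterning the abdomen. It also acts in the germ line, in neurons and in the clearance of maternal mRNAs at the maternal-to-zygotic transition, when control of development passes to the embryo's own genome.

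The deposited values were log2 signals, normalized together over the 6 columns, so that the columns had nearly the same distribution. Column medians lay between 11.83 and 11.86 in PUM RIPs and between 11.83 and 11.85 in control RIPs. The highest signals were 15.99 in PUM RIPs and 15.98 in control RIPs, close to the limit of 16 of a 16-bit scanner. The median SD of a feature over 3 replicates was 0.283 in PUM RIPs and 0.271 in control RIPs, on the log2 scale. Replicate 3 was labelled with Cy5 in both groups and replicates 1 and 2 with Cy3, so dye cancels within a pair and cannot be told apart from replicate across pairs. Quantile normalization sets the middle of all ratios close to 0, and a ratio is therefore relative to the other features. The number of arrays limits the precision.

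PUM association appeared as a long upper tail beside a narrow body of ratios near 0. 500 features were called higher in PUM RIPs than in control RIPs, which was 6.96% of those tested, and 257 were called lower, which was 3.58%. A call required an adjusted p under 0.05 (limma with the replicate number as a block, two-sided, Benjamini-Hochberg over all 7186 features) and a 1.5-fold or larger change. That limit on size removed nothing: the number of features past the adjusted p alone was 757, which equals the sum of the calls. Of all calls, 66.1% were in the direction of PUM association. The counts fell furthest when replicate 1 was left out, to 99 features called higher and 13 lower. In that fit 494 of the 500 features called higher and 252 of the 257 called lower still differed by 1.5-fold. The cause of the fall was not tested. The fit lacking replicate 2 called 360 higher and 151 lower. The fit lacking replicate 3 called 429 higher and 147 lower. Fitting the RIPs without the replicate block gave 197 higher and 66 lower.

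**Figure D1:**
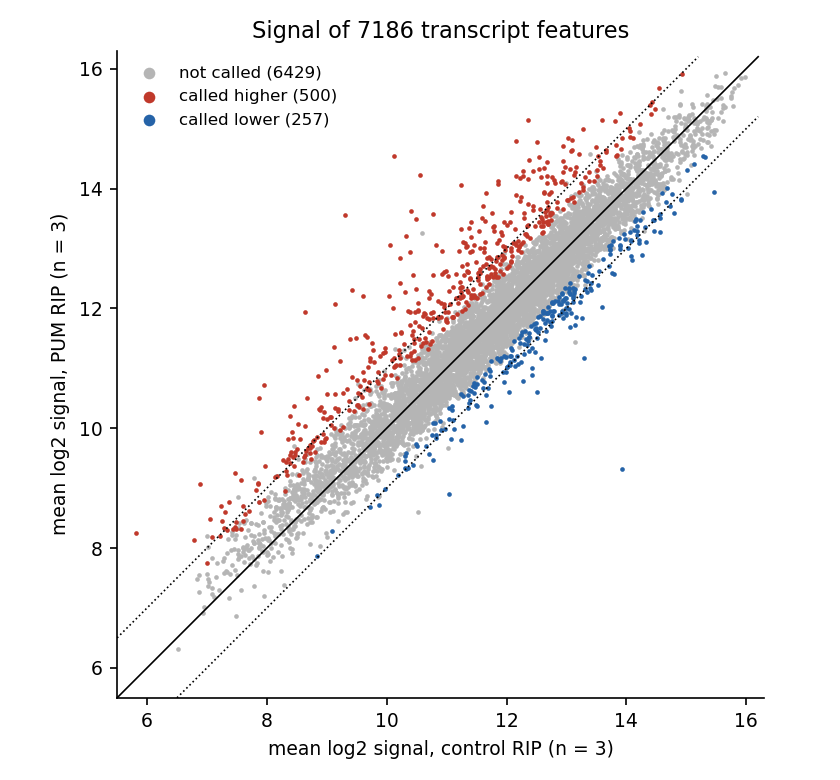
Mean log2 signal of each of the 7186 features in PUM RIPs (vertical axis) and in control RIPs (horizontal axis), n = 3 each. The solid line marks equal signal and the dotted lines a 2-fold difference; 282 of the 500 features called higher (red) and 77 of the 257 called lower (blue) differ by 2-fold or more, and the single point farthest from the line is a feature called lower.

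The sizes of the differences were lopsided only in the tails. The median log2 ratio (PUM RIP minus control RIP, mean of 3 pairs) over all features was 0.01. The middle of the distribution was nearly symmetrical, with quartiles of -0.26 and 0.28. The 5th and 95th percentiles were -0.66 and 0.91, and the 1st and 99th percentiles were -1.02 and 1.74. At 1.5-fold, without regard to the test, 792 features were higher and 502 lower. At 2-fold there were 295 higher and 85 lower, at 4-fold 42 higher and 3 lower, and at 8-fold 7 higher and 1 lower. The upper tail therefore held most of the large differences. The median SE of a ratio was 0.18 on the log2 scale, so that many ratios in the middle of the distribution lay within 1 or 2 SE of 0. Each SE in this report is the moderated SE of limma, which borrows variance from all features. It is not the SE of a feature's own 3 ratios, and can be smaller or larger than that.

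**Figure D2:**
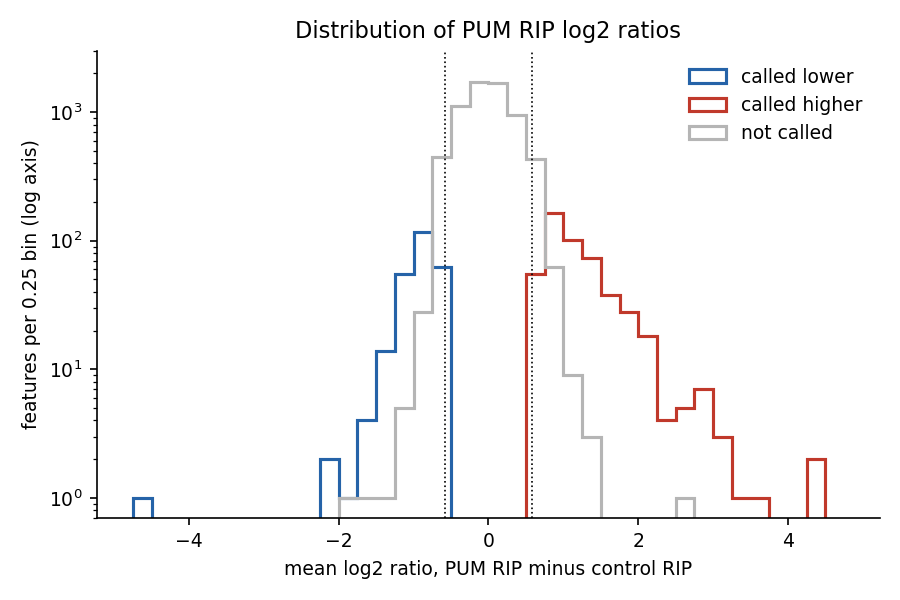
Number of features (log axis) in bins of the mean log2 ratio, PUM RIP minus control RIP. Dotted lines mark 1.5-fold; called features lie outside them, with the upper tail reaching 4.42 and the lower tail ending at -2.14 apart from 1 feature at -4.61.

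Features called higher had a median difference of 2.10-fold, and the quartiles were 1.82-fold and 2.67-fold. Features called lower had a median of 1.83-fold. In the first set the mean log2 signal had a median of 12.36 in PUM RIPs and 11.22 in control RIPs. In the second set the medians were 11.77 in PUM RIPs and 12.66 in control RIPs. Features called higher thus sat above the middle of all features (11.86) in PUM RIPs and below it (11.84) in control RIPs, a contrast that the ratio itself partly fixes. Many features with a ratio past 1.5-fold were not called: 292 above and 245 below. Their 3 ratios spread more, with a median SD of 0.49 for those above, against 0.29 over the features called higher.

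Calls occurred over the whole range of brightness, but the excess of higher over lower calls was largest among dim features. Features were divided into 4 equal bins by the mean of their 6 log2 signals. In the dimmest bin 8.4% were called higher and 1.95% lower. In the other bins the percentages higher were 6.12, 6.57 and 6.73, in order of rising signal, and the percentages lower were 3.51, 5.18 and 3.67. The median log2 ratio was 0.086 in the dimmest bin and 0.005, -0.036 and -0.027 in the others. Without regard to the test, the dimmest bin held 284 ratios past 1.5-fold above control and 91 below. The error was largest for dim features: the median SD of the 3 ratios was 0.394 in the dimmest bin and 0.239 in the brightest. Differences of 4-fold or more above control numbered 11, 10, 13 and 8 in the 4 bins, so the largest ratios were not confined to features dim by this mean. The mean includes the PUM RIPs, so a large ratio above control itself raises a feature's place among the bins.

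The 3 pairs of RIPs gave related orders of features. Across features, the log2 ratios of replicates 1 and 2 had a Pearson r of 0.628 and a Spearman rho of 0.549. For replicates 1 and 3 the values were 0.485 and 0.425, and for replicates 2 and 3 they were 0.529 and 0.496. These are descriptions over 7186 features, which are not independent replicates. The SD of the ratios over features was 0.65, 0.56 and 0.64 in replicates 1, 2 and 3. In 49.9% of features the 3 ratios were of one sign, with 1852 above 0 and 1737 below 0.

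The top of the order agreed between replicates better than the bottom. The 100 highest ratios of replicates 1 and 2 shared 42 features, those of 1 and 3 shared 50, and those of 2 and 3 shared 51. The 100 lowest ratios shared 28, 16 and 19 for the same pairs of replicates. All 3 replicates had 35 features in common among their 100 highest and 10 among their 100 lowest. Among the 500 highest and 500 lowest, 182 and 80 were common to all 3. The difference between top and bottom was not tested.

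**Figure D3:**
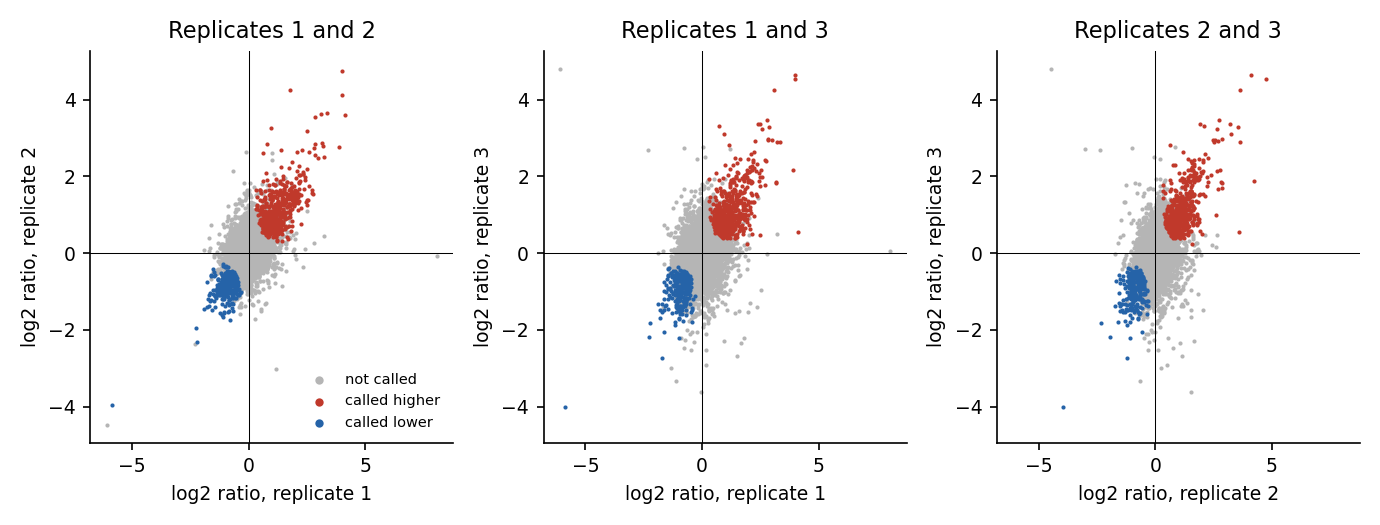
Log2 ratios, PUM RIP minus control RIP, of each feature in pairs of replicates, with features called higher in red and lower in blue. The red points extend along the diagonal in all 3 panels, and the grey points far from it are features without a call whose replicates differed.

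All 500 features called higher had 3 ratios above 0 and all 257 called lower had 3 ratios below 0. Over all features the shares were 25.8% and 24.2%. The calls were made on these same 3 ratios, so agreement among them is largely set by the calling. In 384 of the 500, or 76.8%, each of the 3 ratios was at least 1.5-fold, and this held for 160 of the 257 in the other direction, or 62.3%. The 3 PUM values lay above the 3 control values, with no overlap, in 426 of the features called higher. Over all features that pattern occurred in 12.5%, and its reverse in 11.6%. In the remaining features called higher the groups overlapped, while each pair kept its sign. The median log2 ratio of the features called higher was 1.18 in replicate 1, 1.07 in replicate 2 and 1.00 in replicate 3.

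Few features had strongly discordant replicates. The 3 ratios had an SD above 1 in 133 of the 7186 features, above 2 in 10 features and above 3 in 2 features. One of these, FBtr0290271, was the single feature among the 100 highest ratios that was not called. Its log2 signals were 13.19, 12.72 and 13.89 in PUM RIPs and 5.13, 12.79 and 13.83 in control RIPs, so that only the control value of replicate 1 stood apart. Its mean log2 ratio was 2.68 with an adjusted p of 0.259 (limma). The other, FBtr0111302, had 5.77, 7.61 and 12.44 in PUM RIPs and 11.85, 12.09 and 7.63 in control RIPs. Replicate 3 ran opposite to the other replicates in both groups, and the mean log2 ratio of -1.92 had an adjusted p of 0.521 (limma). Both IDs were singled out after their values were seen, and neither ID is paired with a gene name in the sources used here.

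Calls followed the order of ratios closely at the top, which is partly set by the rule, since a call is made on the same mean ratio. Over all features 6.96% were called higher and 3.58% lower. The 10 highest ratios were all called, as were 49 of the 50 highest, 99 of the 100 highest, 242 of the 250 highest and 433 of the 500 highest. The log2 ratio at these places was 2.88, 1.91, 1.54, 1.09 and 0.77. From the bottom, 8 of the 10 lowest, 45 of the 50 lowest, 92 of the 100 lowest, 202 of the 250 lowest and 257 of the 500 lowest were called. The log2 ratio had already shrunk to -0.97 at the hundredth place from the bottom.

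The highest 15 calls with 3 ratios above 0 ranged from 6.23-fold to 21.5-fold, with a median of 7.70-fold. 2 features stood at the head. FBtr0081990 had log2 signals of 14.68, 14.35 and 14.61 in PUM RIPs, against 10.70, 9.60 and 10.08 in control RIPs. The PUM values lay close together and far above every control value. The mean log2 ratio was 4.42 ± 0.20 (SE, n = 3 pairs), or 21.5-fold, with an adjusted p of 0.000162 (limma). The feature ranked 4, 1 and 3 of 7186 in replicates 1, 2 and 3.

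FBtr0085906 had 12.84, 13.73 and 14.10 in PUM RIPs, against 8.83, 9.61 and 9.47 in control RIPs. All 3 PUM values were again above all control values, and both groups had their lowest value in replicate 1. The log2 ratio was 4.26 ± 0.19 (SE, n = 3 pairs), with an adjusted p of 0.000162 (limma), and the ranks in the 3 replicates were 3, 3 and 2. Neither ID is paired with a gene name in the sources used here.

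The third to the fifteenth of these features ran from 3.66 down to 2.64 in log2 ratio. Their mean log2 signals lay between 10.51 and 15.15 in PUM RIPs and between 7.87 and 12.37 in control RIPs. Groups did not overlap in any of the 13, against 12.5% of all features with PUM above control in this way. The 13 were picked for large ratios of one sign, which favours separation. All but 2 of the 13 were among the 100 highest ratios of every replicate. The exceptions were the fourteenth, whose 3 log2 ratios were 4.13, 3.60 and 0.56, and the fifteenth, with 1.78, 4.25 and 1.89. For the fourteenth, replicate 3 ranked 1102. Both lost their call when replicate 1 was left out, with adjusted p of 0.199 and 0.0803 (limma), and without the replicate block, with 0.0852 and 0.0519. The fourteenth also lost it with a trended and robust prior (adjusted p 0.0887). For the fourteenth the mean log2 ratio was 2.76, and it was 2.08 without replicate 1 and 3.86 without replicate 3. That of the fifteenth was 2.64, and 1.83 without replicate 2.

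The lowest 8 calls were less extreme except for the first. FBtr0073224 had log2 signals of 9.27, 9.32 and 9.38 in PUM RIPs, against 15.15, 13.27 and 13.38 in control RIPs. The PUM values were almost equal, whereas replicate 1 was the highest control value. The log2 ratio was -4.61 ± 0.37 (moderated SE, n = 3 pairs), a 24.4-fold lower signal in PUM RIPs, with an adjusted p of 0.000978 (limma). Its 3 ratios were -5.88, -3.95 and -4.00, a wider spread than the moderated SE conveys. Without replicate 1 the log2 ratio was -3.97. FBtr0088910 followed with 8.87, 9.16 and 8.68 in PUM RIPs, against 11.14, 11.12 and 10.87 in control RIPs. Its log2 ratio was -2.14 ± 0.17 (SE, n = 3 pairs), with an adjusted p of 0.000978 (limma). The other 6 lay between -2.12 and -1.52, and the fourth of the 8, at -1.89, lost its call without replicate 1 (adjusted p 0.0911, limma).

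**Figure D4:**
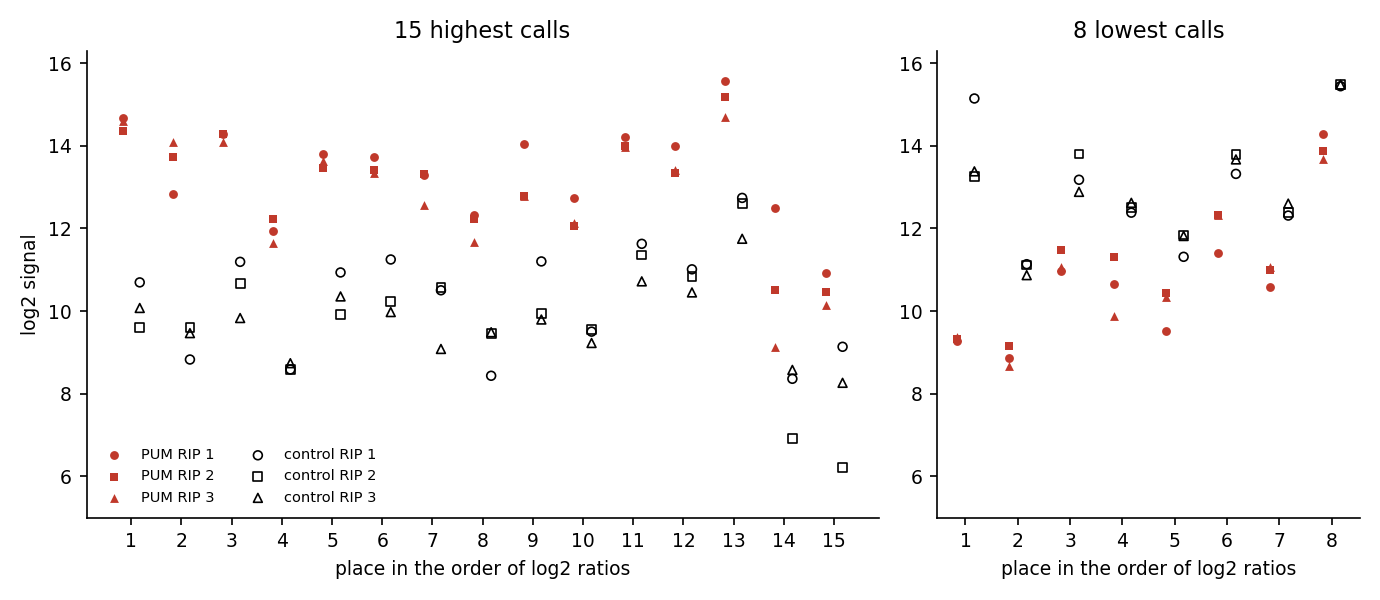
Log2 signals of the 15 highest and the 8 lowest calls in the 3 PUM RIPs (filled red) and the 3 control RIPs (open black), with circles, squares and triangles for replicates 1, 2 and 3. PUM and control values do not overlap in any of the 23 features, which were picked for large ratios of one sign. Over all features, PUM values lay fully above control in 12.5% and fully below in 11.6%.

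The BRAT RIPs were set against the same control RNAs, so the values beside each other below share their controls and are not independent. In the BRAT comparison 19.1% of features were called higher and 21.1% lower. FBtr0081990 had a log2 ratio of 0.15 in BRAT RIPs against control and FBtr0085906 had -0.58, neither called. Of the highest 15 PUM features, 4 were called higher in BRAT RIPs, none was called lower and 11 were not called. The BRAT log2 ratios of the 15 ranged from -0.58 to 3.51, with a median of 0.21. Of the lowest 8 PUM features, 5 were called lower in BRAT RIPs and 1 higher. FBtr0073224 had a BRAT log2 ratio of -4.99, beside -4.61 in PUM RIPs. The ratio of FBtr0088910 was -1.86 in BRAT RIPs.

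Gene names could be given to 37 of the 7186 features, through transcript IDs that the RefSeq gene table of Drosophila (Release 6) holds among its synonyms. Of these, 13 were listed under 1 gene and 24 under 2 or more genes, mostly transcripts that carry 2 reading frames. A feature of the second kind measures the shared transcript and not either gene alone. The transcripts of hunchback, bicoid, Cyclin B, pumilio and brain tumor, among the genes that the study discusses as PUM targets or partners, could not be matched to a feature and were not analysed here. The markers of early embryos, of later tissues and of ovary were likewise not matched, so the labelled stage was not checked on them. Neither was the enrichment of known targets in the PUM RIPs.

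3 of the 37 named transcripts were called higher in PUM RIPs (8.11%, against 6.96% of all features) and 1 was called lower (2.7%, against 3.58%). These shares lie near those of all features. The median log2 ratio of the 37 was 0.01, beside 0.01 over all features. The 37 transcripts therefore serve as examples of single measurements, from -0.87 to 1.40 in log2 ratio, and carry no statement about the PUM-bound set as a whole.

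The fend transcript FBtr0071349 had the highest ratio of the 37 and ranked 132 of 7186. Its log2 signals were 13.30, 12.67 and 12.24 in PUM RIPs, against 11.36, 11.31 and 11.35 in control RIPs. The control values were nearly identical, and the PUM values all lay above them. The 3 ratios were 1.95, 1.36 and 0.89. The mean was 1.40 ± 0.23 (SE, n = 3 pairs), or 2.64-fold, with an adjusted p of 0.011 (limma). Without replicate 1 the log2 ratio was 1.12 and the adjusted p 0.0815. In BRAT RIPs the log2 ratio was 0.64 and was called higher.

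The transcript listed under both CG12016 and Dpm2 ranked 226. Dpm2 is the regulatory subunit of the enzyme that makes dolichol-phosphate mannose, the mannose donor for glycosylation in the endoplasmic reticulum. Its log2 signals were 12.04, 11.51 and 11.13 in PUM RIPs, against 10.80, 10.49 and 10.00 in control RIPs. Groups did not overlap, replicate 1 was highest and replicate 3 lowest in both, and the 3 ratios lay between 1.02 and 1.24. The mean log2 ratio was 1.13 ± 0.16 (SE, n = 3 pairs), with an adjusted p of 0.00737 (limma). The call was lost without the replicate block (adjusted p 0.0791) and without replicate 1 (adjusted p 0.0734). The BRAT log2 ratio was 1.33, also called higher.

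The transcript listed under lmgA and lmgB ranked 354. lmgA encodes a subunit of the anaphase-promoting complex, the ubiquitin ligase that drives cells out of mitosis. Its log2 signals were 12.48, 12.00 and 12.08 in PUM RIPs, against 11.36, 11.17 and 11.25 in control RIPs. The lowest PUM value was above the highest control value. The mean log2 ratio was 0.93 ± 0.17 (SE, n = 3 pairs), or 1.90-fold, with an adjusted p of 0.0164 (limma). Without replicate 1 the adjusted p was 0.11. The BRAT log2 ratio of 0.30 was not called.

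Among the transcripts past 1.5-fold, 2 did not pass the test. Mocs2A and Mocs2B, the small and large subunits of molybdopterin synthase, share a transcript with log2 signals of 11.03, 9.91 and 10.17 in PUM RIPs, against 10.04, 9.63 and 8.83 in control RIPs. Each PUM value exceeded the control of its own replicate, but the groups overlapped. The mean log2 ratio was 0.87 ± 0.23 (SE, n = 3 pairs), with an adjusted p of 0.0527 (limma). It was called without replicate 2 (adjusted p 0.0147) and with a trended and robust prior (adjusted p 0.0378).

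The alpha-Spec transcript, for alpha-Spectrin of the cortical membrane skeleton, had log2 signals of 8.581, 8.922 and 8.898 in PUM RIPs, against 8.294, 8.075 and 8.220 in control RIPs. All PUM values were above all control values. The mean log2 ratio was 0.60 ± 0.18 (SE, n = 3 pairs), with an adjusted p of 0.0782 (limma). After cyclic loess normalization over the 6 columns it was 0.34, with an adjusted p of 0.257 (limma). With a trended and robust prior the adjusted p was 0.219 (limma).

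The only named transcript called lower was listed under CG42488 and CG5116. Its log2 signals were 11.82, 11.71 and 11.88 in PUM RIPs, against 12.20, 12.76 and 13.07 in control RIPs. The PUM values were nearly equal and lay below all control values, which differed from each other. The mean log2 ratio was -0.87 ± 0.21 (SE, n = 3 pairs), with an adjusted p of 0.0387 (limma). The call was lost without the replicate block (adjusted p 0.105) and without any single replicate (adjusted p between 0.0708 and 0.117). In BRAT RIPs the log2 ratio was 0.76, which was called higher against the same control RNAs.

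The other named transcripts did not pass the test. The 33 features without a call had log2 ratios from -0.51 to 0.87, and 31 of them were within 1.5-fold. Both named subunits of GATOR2, the complex that relays amino acid supply to TORC1, were measured. Wdr24 had a log2 ratio of 0.31 ± 0.17 and mio of -0.51 ± 0.18 (SE, n = 3 pairs). The 3 ratios of Wdr24 were 0.13, 0.27 and 0.54, and those of mio were -0.82, -0.27 and -0.44. Each kept 1 sign over the replicates, in opposite directions, and neither was distinguishable from 0 after adjustment (adjusted p 0.28 and 0.115, limma).

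None of the transcripts for chromatin proteins passed the test. The log2 ratio was 0.26 for kis, a chromodomain remodeller, 0.19 for SuUR, which slows replication of heterochromatin, 0.07 for the deacetylase HDAC3 and 0.29 for the histone gene His4r. For kis the 3 ratios were 0.79, 1.00 and -1.01, so replicate 3 ran opposite to the other replicates. His4r did the same with 0.65, 0.67 and -0.44. Without replicate 3 the kis log2 ratio was 0.90 and was called (adjusted p 0.0427, limma). After cyclic loess over all 3 replicates the log2 ratio was 0.03 for kis and 0.10 for His4r.

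Transcripts for mitochondrial proteins included Tim10, a carrier of proteins across the intermembrane space, with a log2 ratio of 0.01, and ND-MNLL, a subunit of respiratory complex I, with -0.51. Tim10 is listed together with CG42497 and ND-MNLL together with CG45089. ND-MNLL had 10.67, 11.37 and 11.15 in PUM RIPs, against 11.00, 11.79 and 11.93 in control RIPs, with an adjusted p of 0.107 (limma). PUM was below control in each pair, although the groups overlapped. Its BRAT log2 ratio was 1.73, called higher.

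2 genes of glycosylphosphatidylinositol anchor synthesis, PIG-M and PIG-P, had log2 ratios of -0.12 and -0.27, both on shared transcripts. The ubiquitin-activating enzyme Uba1 had -0.12, and rdx, an adaptor of a Cullin-3 ubiquitin ligase, had 0.18. Tfb5, a subunit of the general transcription factor TFIIH, had -0.47 on a transcript shared with CG31917, with all 3 ratios below 0 and an adjusted p of 0.118 (limma). Of the 37 transcripts, 19 had ratios of mixed sign, 9 had 3 ratios above 0 and 9 had 3 below 0.

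**Figure D5:**
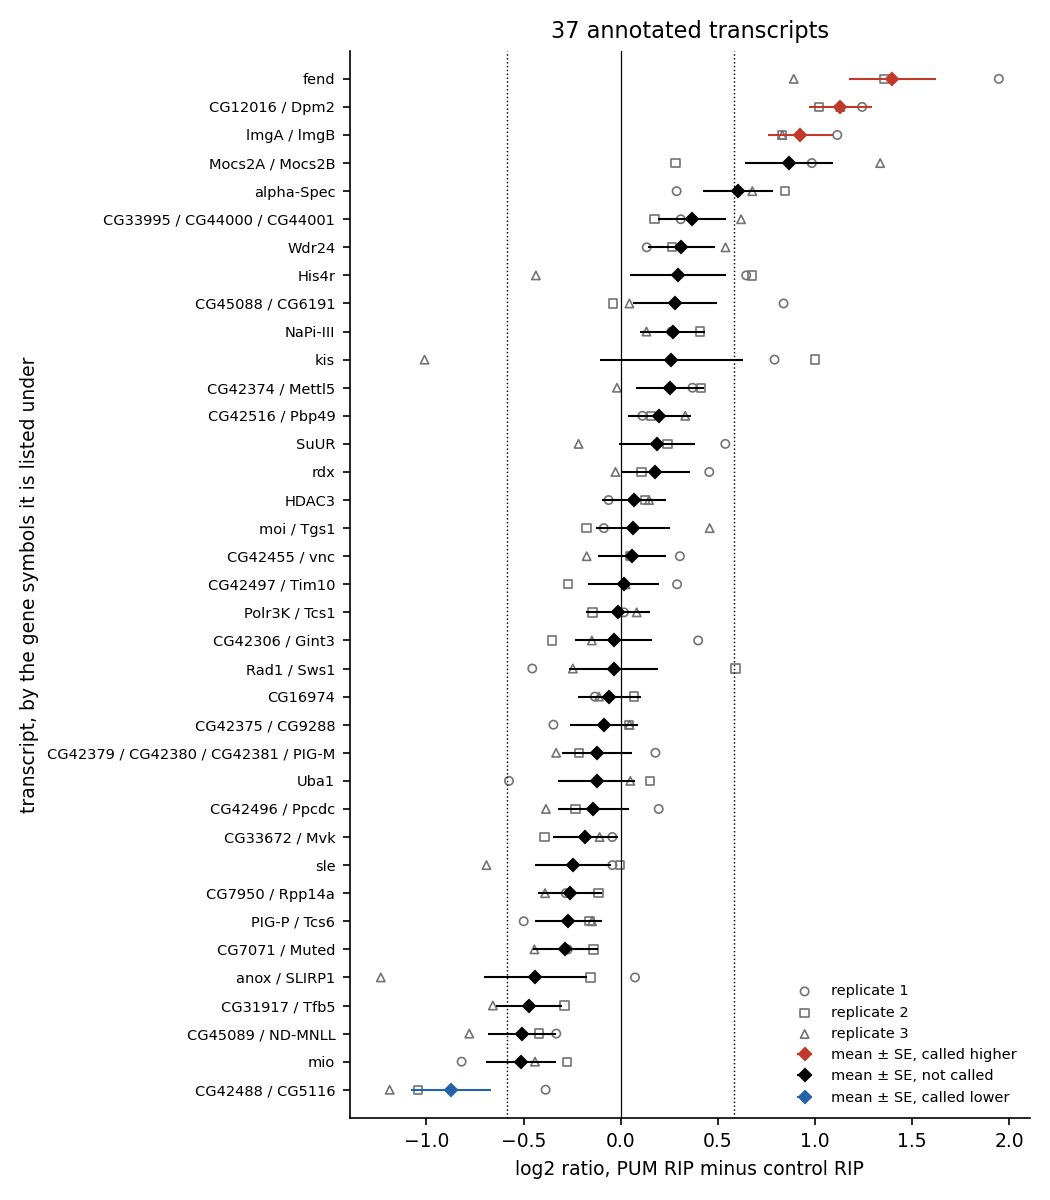
Log2 ratio, PUM RIP minus control RIP, of the 37 transcripts with a gene name, ordered from highest to lowest; open symbols are the 3 replicates and diamonds the mean with its SE from limma. The 3 transcripts called higher and the 1 called lower are coloured, and most of the others have replicates on both sides of 0.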

How the data were processed

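Immunoprecipitated RNA was made into cDNA, given a Cy3 or Cy5 label and put on custom NimbleGen arrays with 2 samples on each. The sources used here do not say which 2. The authors deposited log2 signals after RMA (credited to their processing notes; version not given), normalizing the PUM RIPs and control RIPs together and the BRAT RIPs with the same controls separately. That the scale is log2 was taken from the range of the values. Quantile normalization removes any difference in total recovery. Of 17130 rows, 9944 held no value and were left out. Percentages given here are shares of the 7186 features with values and not of the whole array. The paper limited its own RIP testing to transcripts it had earlier defined as expressed in embryos of this age. Whether the rows without values reflect that filter was not checked.

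PUM RIP was compared with control RIP in limma 3.58.1 (R 4.3.3) on the deposited log2 values, with the replicate number as a block, after the paired analysis of the study, at its limits of an adjusted p under 0.05 and 1.5-fold. The SAM software used by the study was not run. The labels give the same numbers to both groups. Same-numbered PUM and control columns deviated together from their group means (r of 0.505, 0.322 and 0.356). The fit was tested on simulated data. Named features were the 15 highest calls, the 8 lowest and every feature with a gene name. For lack of gene names, IDs were printed for the first 2 of each extreme set and for 2 discordant features. Of 24 gene lists, 2 matched a feature, with 1 gene each (alpha-Spec and ND-MNLL), so lists were not counted. The comparison, members and lists were chosen with earlier results of these data known. The motif bound by PUM was not searched, since no transcript sequence was used here. Alternatives were no block, each replicate left out, centring, cyclic loess, another prior, a filter on dim features and other thresholds.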

Additional observations from a re-analysis of the deposited data

How the results depend on the processing

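The excess of features higher in PUM RIPs over features lower held under each of the 10 alternatives, but the counts did not. Without the replicate block 197 were called higher and 66 lower (74.9% higher). At 2-fold 282 and 77 were called (78.6% higher), a smaller number by construction. With a trended and robust prior 408 were called lower and 59.6% of calls were higher, and at an adjusted p under 0.10 438 were lower and 61.3% of calls were higher. Without the dimmest 25% of features 56.1% of calls were higher. Leaving out 1 replicate gave 99 to 429 higher, 13 to 151 lower and 70.5% to 88.4% higher. The prior degrees of freedom in these fits were 3.9 without replicate 1, 15.9 without replicate 2 and 6.34 without replicate 3. Without replicate 1, 494 of the 500 features called higher and 252 of the 257 called lower still differed by 1.5-fold. No call could change sign when a replicate was left out, since each had 3 ratios of one sign. The cause of the lower counts was not tested. Centring and cyclic loess kept all counts and shares within their limits. The share of features with ratios of one sign was 49.8% after centring and 49.5% after cyclic loess, which was added for this share after seeing the data.

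Of 470 values for 60 named features, 441 kept their sign and their side of the threshold. Part of this agreement was set by construction. Dropping the block, changing the prior or filtering dim features leaves each log2 ratio as it was, so no sign could turn there. Each called feature had ratios of one sign in every replicate, so leaving out a replicate could not turn its sign. Among features without a call, signs could turn under centring, cyclic loess or the loss of a replicate, and turned only in the last. With a replicate left out, the log2 ratio ranged from -0.11 to 0.90 for kis and from -0.13 to 0.19 for moi and Tgs1. It ranged from -0.064 to 0.18 for CG42455 and vnc and from -0.12 to 0.16 for CG42497 and Tim10. The range was -0.064 to 0.049 for Polr3K and Tcs1, -0.25 to 0.13 for CG42306 and Gint3 and -0.35 to 0.17 for Rad1 and Sws1. For CG42375 and CG9288 it was -0.15 to 0.044, and for Uba1 -0.26 to 0.10. Counts per gene list were not run, since no list matched more than 1 gene.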
